A study of Homo sapiens with 6 samples.

Results

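The keratins described here are the 44 keratin genes that could be read on the arrays of a comparison between MCF-10A cells with ectopic CRB3 and their vector control cells. The family was chosen with earlier results of these data known, those of KRT13 and KRT14 among them. Within it, every probe set whose platform symbol is KRT followed by a number was taken by name. A closing A, B or C was allowed, while keratin-associated proteins and pseudogenes were left out. This gave 56 probe sets of the 54613 tested and 44 genes of 19775 with a symbol of their own, of which 35 keratins had 1 probe set and 9 had more. KRT6A, KRT6B, KRT6C, KRT17 and 7 other keratins of the RefSeq gene table were not analysed here.

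MCF-10A is an immortalized, non-transformed line of human mammary epithelial cells. All cells carried a retrovirus and were selected with puromycin, with the empty pNG vector in the vector control cells and pNG-Crb3, which drives the polarity protein CRB3, in the CRB3-expressing cells. The cells grew in the line's usual medium, and RNA of 3 samples per group was taken from dividing monolayers at 70% confluence and put on 6 Affymetrix U133 Plus arrays. Both groups are drug-selected populations of 1 cell line, and separate infections for the 3 samples of a group are not mentioned in the sources used here, so the p-values speak only for the spread among the samples taken, which may be technical.

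Keratins are the intermediate filament proteins of epithelial cells. A filament needs a type I (acidic) and a type II (basic) keratin in equal amounts, and each kind of epithelium uses its own pairs. Simple epithelia, including the luminal cells of the mammary gland, make KRT8 with KRT18 together with KRT7 and KRT19. The basal cells of stratified epithelia, and the basal cells of the mammary gland, make KRT5 with KRT14, the layers above them switch to KRT1 with KRT10 in the skin or KRT4 with KRT13 in the linings of mouth and oesophagus, and wounded skin turns on KRT6 with KRT16 and KRT17. The type I genes lie in a cluster on chromosome 17 and the type II genes, with KRT18, in a cluster on chromosome 12.

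The deposited values are log2 signals made with the Robust Multichip Average (RMA) method, 1 per probe set and array. Each gene was read in its brightest probe set, and a gene was called higher or lower where limma gave an adjusted p under 0.05 over all probe sets and the fold change was above 1.5. The array medians lay between 5.84 and 5.88. The CRB3 probe set read 7.78 ± 0.17 without and 12.11 ± 0.10 with the transgene (log2, SD, n = 3). Of 6 epithelial markers, 3 were called higher (CDH1, CLDN7 and CLDN4) and 0 lower, and all 6 lay higher on every CRB3-expressing array. Among all genes, 1.43% were called higher, 0.465% were called lower and 14.5% lay higher on every CRB3-expressing array. The mean log2 value over the epithelial list was 9.27 to 9.29 on vector control arrays and 9.93 to 10.03 on CRB3-expressing arrays. Of 6 myoepithelial markers 0 were called (means of 6.11 to 6.22 and 6.17 to 6.21), of 4 immune markers 0 were called (5.97 to 6.03 and 5.89 to 6.08), and of 8 fibroblast markers 1, DCN, was called lower (5.85 to 5.95 and 5.78 to 5.85). RMA values have no true zero and carry no detection calls, so values under 6 are not shown to be above background. The cut of 6 is no detection limit, and a value over it is not thereby shown to be above background. The part of these markers in the keratin results was not tested, and fewer cells of a kind and less RNA per cell cannot be told apart in such samples.

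In CRB3-expressing cells, 6 keratins rose and 0 fell, while 38 were not called. The 6 were KRT13 of mucosal suprabasal cells, KRT16 of wounded skin, KRT15 and KRT14 of basal cells, KRT8 of simple epithelia, and KRT80. Among all 19775 genes, 1.43% were called higher and 0.465% lower. Over probe sets, 6 of the 56 keratin probe sets were higher and 0 were lower, where 0.948% of all probe sets were higher and 0.363% lower. At an unadjusted p under 0.05 from limma, 8 of the 44 keratins were higher and 0 were lower, where 10.4% of all genes were higher and 8.39% lower. Most of the family lay close to 0, and the median log2 fold change of the 44 keratins was 0.029 (range -0.17 to 4.40), beside 0.0066 over all genes.

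**Figure D1:**
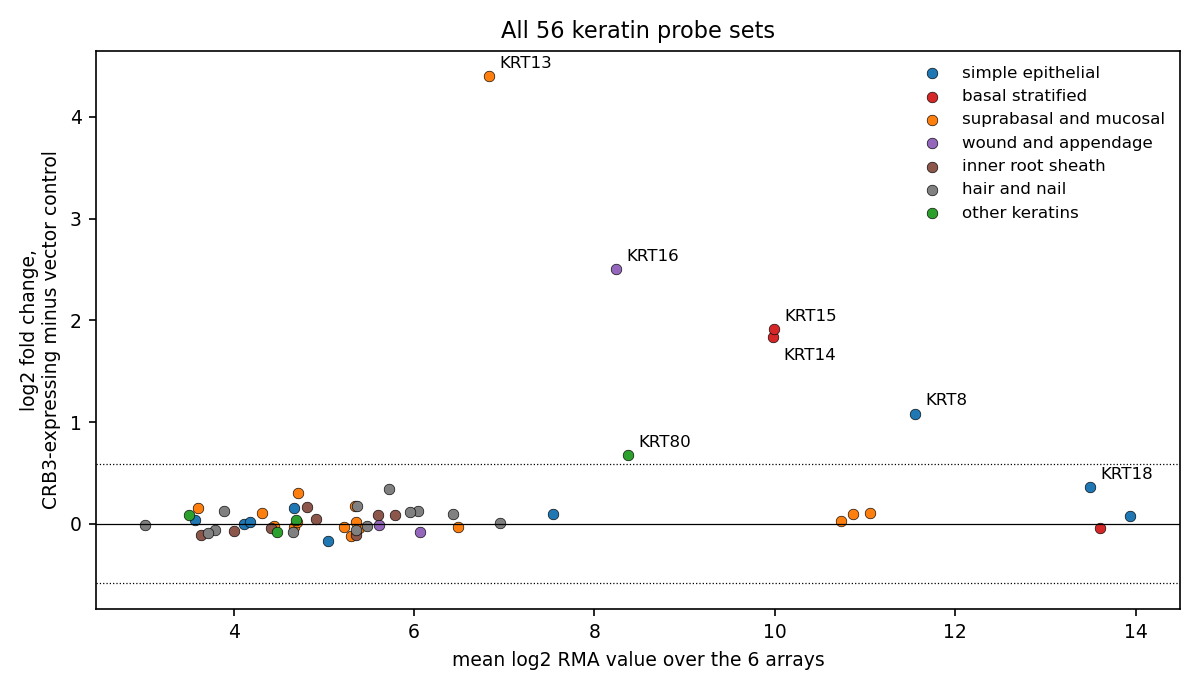
Change of each of the 56 keratin probe sets (y axis, log2 value in CRB3-expressing minus that in vector control cells) against its mean log2 RMA value over the 6 arrays (x axis), coloured by the kind of epithelium the keratin is known from. Dotted lines mark a 1.5-fold change. 6 probe sets lie above the upper line and 0 below the lower line, and probe sets with a mean under 6 lie close to 0.

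Many keratins of hair and skin appendages gave only low signals in these cells. Of the 44 keratins, 29 had a mean log2 value under 6 over the 6 arrays, and 0 of these were called, with a median log2 fold change of -0.021 (range -0.17 to 0.34). Of the 15 with a mean of at least 6, 6 were higher and 0 lower, where 2.10% of all genes at that level were higher and 0.683% lower. KRT13 reached that level only through the CRB3-expressing arrays. A low signal may understate a change. Of 24 type I keratins 4 were higher (median log2 fold change 0.041), and of 20 type II keratins 2 were higher (median 0.018). Among all genes 1.43% were higher. Both types lack keratins not analysed here, among them KRT17 of type I and KRT6A, KRT6B and KRT6C of type II. These counts therefore do not compare the types.

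The mucosal keratin KRT13 had the largest change of the 44 genes. Its log2 values were 4.47, 4.68 and 4.74 on the vector control arrays and 8.90, 8.73 and 9.45 on the CRB3-expressing arrays. The groups lay far apart, and CRB3 replicate 3 was the highest array. The log2 fold change was 4.40 (SE 0.17, 95% confidence interval 4.02 to 4.77, limma adjusted p = 1.72e-06), which is 21.1-fold. The vector control values are low, so they give a level that may be background. Its only probe set is of a type that can bind several transcripts. Of the 12 keratins of suprabasal and mucosal epithelia, KRT13 alone was called, and the median log2 fold change of this group was -0.0029.

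The type II partner of KRT13 is KRT4, which was dim in both groups. Its brightest probe set had means of 5.24 in vector control and 5.21 in CRB3-expressing samples, which overlapped, with a log2 fold change of -0.029 (95% confidence interval -0.17 to 0.11). The other KRT4 probe set was at 4.51, 4.71 and 4.49 on vector control arrays and 4.79, 4.98 and 4.84 on CRB3-expressing arrays. Here the groups did not overlap, and the log2 fold change of 0.30 did not pass the test (limma adjusted p = 0.101). KRT10, the type I keratin of the suprabasal epidermis, stood at 10.98, 11.01 and 11.01 on vector control arrays and 11.10, 11.09 and 11.12 on CRB3-expressing arrays. Its groups were separate too, by a log2 difference of 0.10 (95% confidence interval -0.027 to 0.23, limma adjusted p = 0.431), and the other KRT10 probe sets gave 0.094 and 0.031. KRT1, the partner of KRT10, was dim, with a log2 fold change of -0.12 (limma adjusted p = 0.481).

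KRT16, the keratin that skin turns on at wounds and in fast-growing epidermis, was next in size. It read 6.88, 7.10 and 7.00 on vector control arrays and 9.40, 9.42 and 9.65 on CRB3-expressing arrays. Every CRB3-expressing array lay more than 2 log2 units above every vector control array. RMA values carry no detection calls, so the vector control level of KRT16 may be background too. The log2 fold change was 2.50 (SE 0.089, 95% confidence interval 2.30 to 2.70, limma adjusted p = 1.34e-06), or 5.66-fold. Its type II partner KRT6A was not analysed here, so the pair could not be followed. Of the 7 keratins listed for wounds and appendages 3 were measured, and the other two, KRT75 of the hair follicle companion layer and KRT79, had log2 fold changes of -0.081 and -0.011 and were not called.

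Both type I keratins of the basal layer rose. KRT15, a keratin of basal cells and a known marker of hair follicle stem cells, was at 9.27, 9.02 and 8.82 on vector control arrays and 10.92, 10.75 and 11.18 on CRB3-expressing arrays. KRT14, the basal partner of KRT5, was at 9.11, 8.99 and 9.07 and then at 10.80, 10.81 and 11.06. Neither gene had overlapping groups. The log2 fold changes were 1.91 for KRT15 (SE 0.14, 95% confidence interval 1.60 to 2.22, limma adjusted p = 8.07e-05) and 1.83 for KRT14 (SE 0.084, 95% confidence interval 1.64 to 2.03, limma adjusted p = 5.93e-06), which are 3.76-fold and 3.57-fold. Their type II partner KRT5 was not called. It read 13.65, 13.59 and 13.63 on vector control arrays and 13.53, 13.58 and 13.65 on CRB3-expressing arrays. The KRT5 groups overlapped, with a log2 fold change of -0.040 (95% confidence interval -0.18 to 0.10, limma adjusted p = 0.812). Very bright signals, like low ones, may understate a change, and for KRT5 this was not tested.

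**Figure D2:**
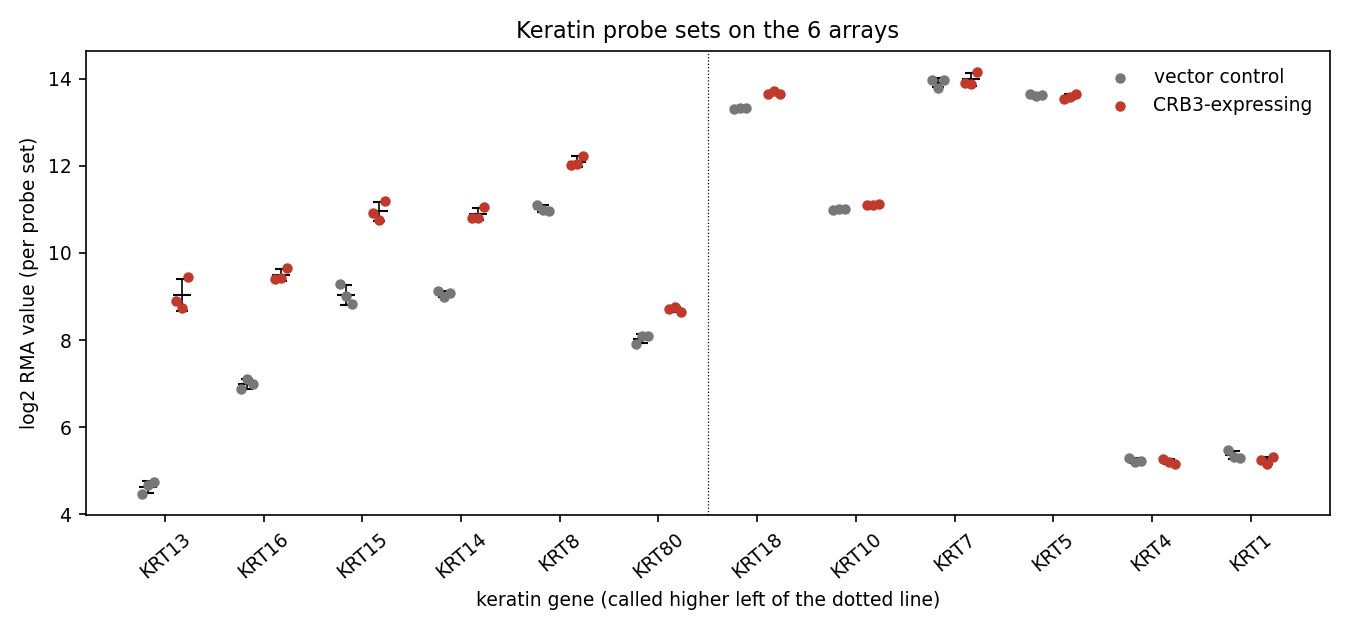
Log2 RMA value (y axis) of 12 keratins (x axis) on 3 arrays per group, vector control in grey and CRB3-expressing in red, each in its brightest probe set. Points are arrays and bars the mean and SD (n = 3). The 6 keratins left of the dotted line were called higher and their groups do not overlap, and KRT5 and KRT7 on the right overlap near the top of the scale. Heights of different keratins come from different probe sets and cannot be compared.

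Among the keratins of simple epithelia the type II member KRT8 rose. Its log2 values were 11.11, 10.98 and 10.95 on vector control arrays and 12.02, 12.03 and 12.23 on CRB3-expressing arrays. The groups were separate, and CRB3 replicate 3 was again the highest. The log2 fold change was 1.08 (SE 0.079, 95% confidence interval 0.90 to 1.26, limma adjusted p = 0.000102), or 2.12-fold. The only KRT8 probe set is of a type that can bind related transcripts, and KRT8 has many pseudogenes.

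KRT18, the type I partner of KRT8, passed the test on p but was under the fold threshold. Its only probe set, like that of KRT8, is of a type that can bind related transcripts. KRT18 was at 13.29, 13.33 and 13.32 on vector control arrays and 13.66, 13.72 and 13.64 on CRB3-expressing arrays. The KRT18 groups did not overlap. The log2 fold change of 0.36 (SE 0.059, 95% confidence interval 0.23 to 0.50, limma adjusted p = 0.0110) came to 1.28-fold. The whole interval of this signal was under a 1.5-fold change. Very bright signals may understate a change, and for KRT18 this was not tested. KRT7, the other type II keratin of simple epithelia, read 13.97, 13.79 and 13.96 and then 13.90, 13.88 and 14.15. These groups overlapped, and the log2 fold change was 0.073 (95% confidence interval -0.13 to 0.28, limma adjusted p = 0.757), with 0.099, 0.15 and 0.015 in the other probe sets. KRT19, a luminal keratin named here after its values were seen, was dim, and its brightest probe set had means of 5.13 in vector control and 4.96 in CRB3-expressing samples. Every CRB3-expressing array lay below every vector control array there, and the log2 difference of -0.17 did not pass the test (95% confidence interval -0.33 to 0.00056, limma adjusted p = 0.308), while the other KRT19 probe set gave 0.0027.

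KRT80 lay just inside the fold threshold. It is a type II keratin of many epithelia whose filaments lie close to desmosomes and to the cell margin. It read 7.91, 8.09 and 8.09 on vector control arrays and 8.72, 8.76 and 8.64 on CRB3-expressing arrays. The groups were separate, and here CRB3 replicate 3 was the lowest of its group. The log2 fold change was 0.67 (SE 0.074, 95% confidence interval 0.51 to 0.84, limma adjusted p = 0.00108), or 1.60-fold. KRT80 was not called when a fold above 2 was required or when the fold threshold was made part of the test.

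In 10 keratins every CRB3-expressing array lay above every vector control array, and in 1, KRT19, below. Among all genes 14.5% were separated upward in this way and 12.1% downward. Besides the 6 called keratins, KRT18 and KRT10, these were KRT33B and KRT74, named after their values were seen. KRT33B, a hair keratin, had means of 5.55 in vector control and 5.89 in CRB3-expressing samples (log2 fold change 0.34, limma adjusted p = 0.143). KRT74 of the inner root sheath had a log2 fold change of 0.085. Neither is shown to be above background. Of the 12 hair and nail keratins measured 0 were called (log2 fold changes -0.090 to 0.34), and of the 6 keratins of the inner root sheath 0 were called (-0.11 to 0.085).

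0 probe sets listed more than 1 keratin, and 1 listed a keratin, the hair keratin KRT34, together with a locus symbol that has no gene name. It was kept out of all counts. It was at 4.80, 4.99 and 4.65 on vector control arrays and 6.59, 6.67 and 6.24 on CRB3-expressing arrays. The groups were separate (log2 fold change 1.69, SE 0.12, limma adjusted p = 0.000107), and the signal cannot be assigned to KRT34 alone.

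Keratins that form filaments together were also set against each other within each array. Because RMA values of different probe sets have no common scale, only the change of a within-array difference between groups was read. The log2 value of KRT14 minus that of KRT5 was higher by 1.87 in CRB3-expressing cells (SD 0.033 over vector control arrays and 0.095 over CRB3-expressing arrays, n = 3), and that of KRT13 minus KRT4 was higher by 4.43 (SD 0.19 and 0.41). KRT18 minus KRT8 differed by -0.72 (SD 0.10 and 0.15), with both signals higher and that of KRT18 by less, and KRT10 minus KRT1 differed by 0.22 (SD 0.12 and 0.063). All 4 differences were larger than the spread, with no overlap between groups. Each had p = 0.1 in a two-sided exact permutation test over the arrays, which is the smallest value that 3 against 3 arrays allow (adjusted p = 0.1 over the 4 pairs). KRT1 and KRT4 were dim in both groups and KRT13 was dim in vector control cells, so the pairs with them rest on values not shown to be above background, and nothing is read from them about KRT1 or KRT4. KRT5 and KRT18 were very bright, where a change may be understated, so the sizes for their pairs describe signals and not transcript amounts.

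**Figure D3:**
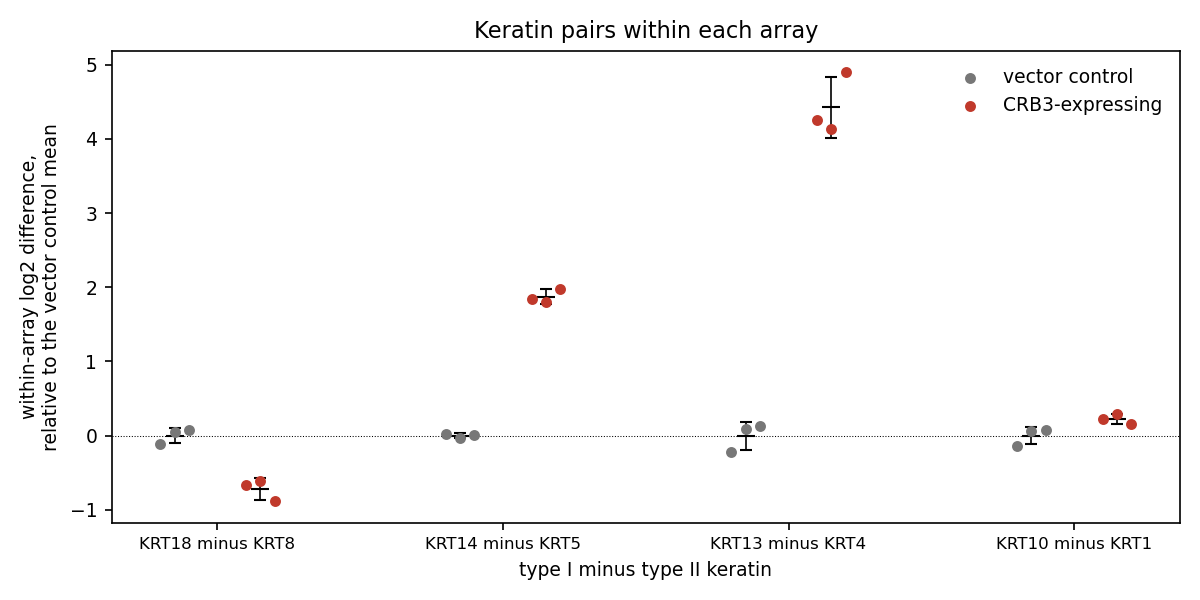
Within-array log2 difference of a type I and a type II keratin that form filaments together, relative to the mean of the vector control arrays (y axis), for 4 pairs (x axis). Grey points are vector control arrays, red points CRB3-expressing arrays, and bars the mean and SD (n = 3). KRT14 minus KRT5 and KRT13 minus KRT4 lie higher in CRB3-expressing cells, by 1.87 and 4.43, and KRT18 minus KRT8 lies lower.

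The called type I keratins lay near each other in the genome. In the RefSeq gene order (GRCh38.p14), KRT36, KRT13, KRT15, KRT19, KRT9, KRT14, KRT16 and KRT17 follow each other as protein-coding genes at the end of the type I cluster of 28 keratins on chromosome 17. All 4 called type I keratins were in this stretch, interrupted by KRT19 and KRT9, a keratin of palm and sole skin (log2 fold change -0.034), neither of which was called. Beside them KRT36, a hair keratin, had a log2 fold change of 0.17 and was not called, and KRT17 was not analysed here. KRT34, at place 15 of the 28, lies outside this stretch. The probe set that lists it with another symbol was kept out of the counts, and its log2 fold change was 1.69 (limma adjusted p = 0.000107). Past KRT17, the genes EIF1, GAST and HAP1 lie between the cluster and JUP, the plaque protein plakoglobin described with the linkers. On chromosome 12, KRT80 and KRT8 stood near opposite ends of 27 keratins, and KRT18 next to KRT8. KRT19, KRT9 and KRT36 are named here for their place.

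**Figure D4:**
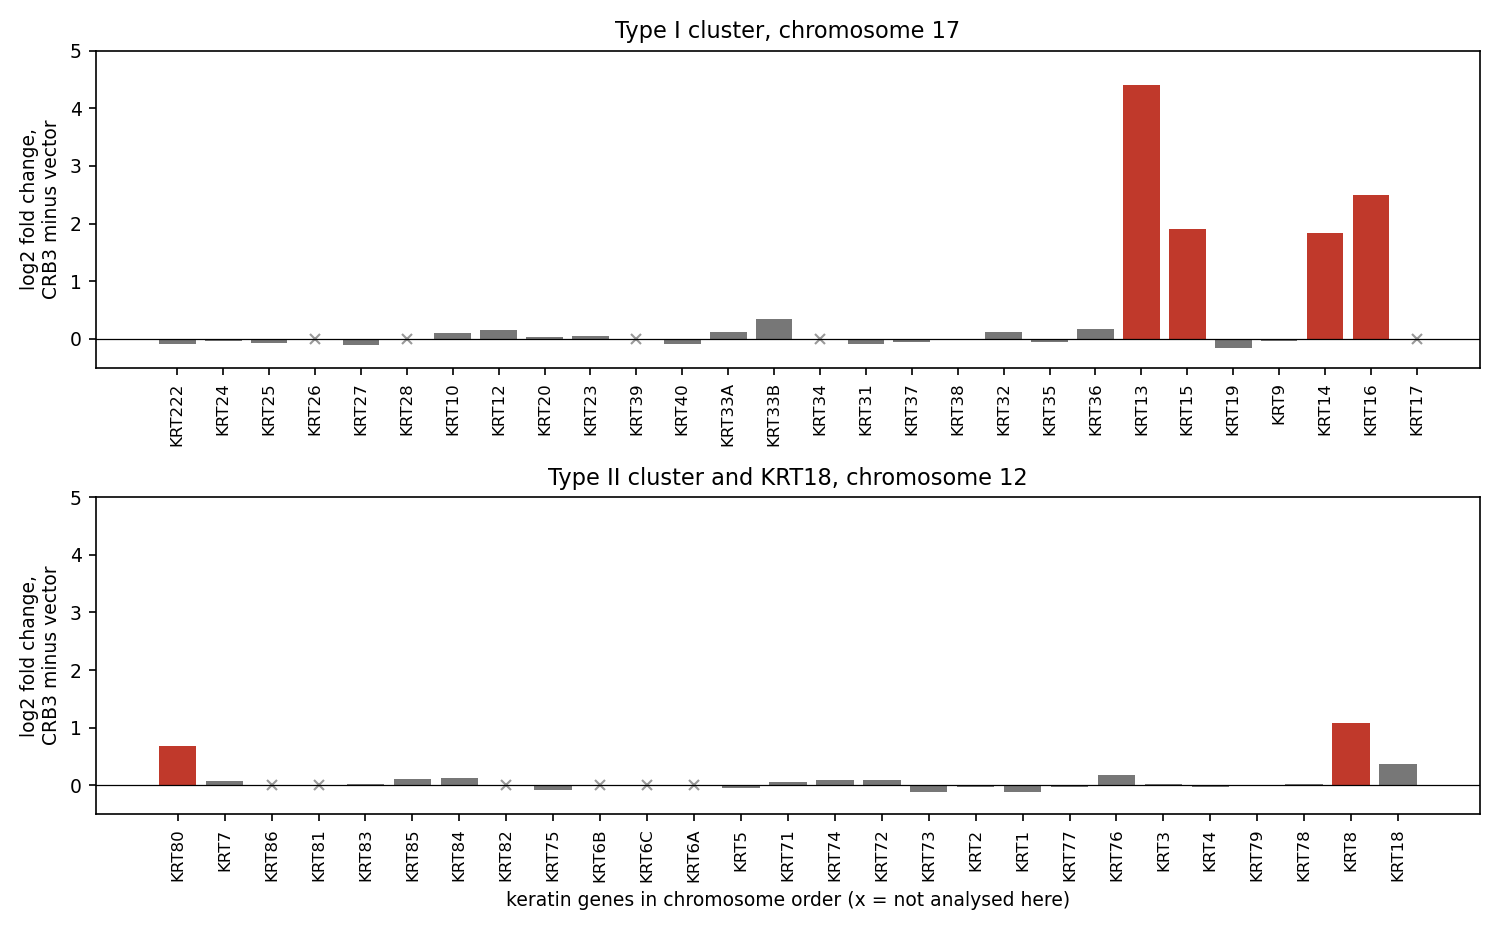
Change of each keratin (y axis, log2 value in CRB3-expressing minus that in vector control cells) in the order of the genes on chromosome 17 (top) and chromosome 12 (bottom). Red bars are called higher, grey bars are not called, and a cross marks a keratin not analysed here. KRT34, whose probe set also lists another symbol and was higher, is among the crosses. The 4 called type I keratins stand at the right end of the chromosome 17 cluster, on either side of KRT19 and KRT9, and KRT80 and KRT8 stand near opposite ends on chromosome 12.

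Keratin promoters differ in whether they hold the letters TATAA, a common form of the TATA box, at which the basal transcription machinery binds. The last 100 bases before the gene start are printed for KRT8, which rose, and for KRT5, KRT10 and KRT4, pair members that were not called, to show keratin promoters with and without these letters. They are from RefSeq (GRCh38.p14), 5′ to 3′ on the minus strand, and capitals mark the letters TATAA. The positions are chr12:52926470-52926569 for KRT8, chr12:52520395-52520494 for KRT5, chr17:40822615-40822714 for KRT10 and chr12:52814117-52814216 for KRT4.
KRT8: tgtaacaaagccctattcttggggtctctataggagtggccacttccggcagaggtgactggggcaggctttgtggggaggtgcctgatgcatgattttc
KRT5: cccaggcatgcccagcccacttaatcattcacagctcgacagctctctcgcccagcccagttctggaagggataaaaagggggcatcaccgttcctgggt
KRT10: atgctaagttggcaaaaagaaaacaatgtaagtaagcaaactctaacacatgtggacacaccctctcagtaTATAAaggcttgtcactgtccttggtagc
KRT4: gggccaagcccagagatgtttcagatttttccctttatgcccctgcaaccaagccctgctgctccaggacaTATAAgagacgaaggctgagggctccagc

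In KRT10 and KRT4 the match begins at base -29 from the gene start, and KRT8 and KRT5 have no match in these 100 bases. Other forms of the TATA box were not searched, so the element may still be there. Over the 250 bases before the start, TATAA on either strand was in 69.7% of 33 promoter windows of 29 keratins, and in 18.9% of the 35116 windows of all genes. The letters CACCC, which KLF factors bind, were in 78.8% of the keratin windows and 54.7% of all windows. GGGCGG, the core of Sp1 sites, was in 12.1% of keratin windows against 42.6% of all. AACCNGTT, the grainyhead-like site, was in 1 window, that of KRT35 (3.03% against 1.49%). TGANTCA, the AP-1 site, was in 0 of 33 windows against 6.57%, and GCCNNNGGC, the AP-2 site, in 15.2% against 19.8%. All were searched on both strands. A match is a run of letters and not a bound site. Of the 6 keratins that rose only KRT8 is in this table, so these shares describe the family and not its changes.

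Genes that work on keratins changed in part. Of 72 genes measured (each in its brightest probe set) of 75 listed as linkers, chaperones, other intermediate filaments or transcription factors of keratin genes, 9 were higher, 1 was lower and 62 were not called, with a median log2 fold change of 0.034. The background shares over all genes are those given for the keratins. When every probe set counted, 11 genes were higher and 1 lower, with the addition of GRHL1 and DSC2, named after their values were seen. The background shares hold for 1 probe set per gene. None is given here for this wider rule, so these counts have no like background. GRHL1, a grainyhead-like factor, had a log2 fold change of 0.61 in the called probe set (limma adjusted p = 0.00581) and 0.11 in the brightest. DSC2, a desmosomal cadherin, had 0.67 and 0.91 in the called probe sets (limma adjusted p = 0.00388 and 0.00773) and 0.37 and 0.41 in the brighter ones, under the fold threshold.

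Of 23 linkers and bundlers, which tie keratin filaments to desmosomes and hemidesmosomes, 4 were higher and 1 was lower. Among all genes 1.43% were higher and 0.465% lower. Of the 23 linkers, 16 had a mean of at least 6, where 2.10% of all genes were higher and 0.683% lower. PPL, the desmosomal plakin periplakin, read 9.44, 9.44 and 9.40 on vector control arrays and 10.42, 10.47 and 10.55 on CRB3-expressing arrays, with separate groups and a log2 fold change of 1.05. The desmosomal cadherin DSG3, the plakin EPPK1, which binds keratins, and the plaque protein JUP had log2 fold changes of 0.77, 0.69 and 0.60. A further EPPK1 probe set was called (0.72), and the others had 0.49, 0.23 and 0.13 and were not. JUP was close to the threshold, and its log2 fold change of 0.57 without vector replicate 1 or without CRB3 replicate 3 was under it. DST, whose epithelial form anchors keratins at hemidesmosomes, fell by 1.02 on the log2 scale in its brightest probe set. A further DST probe set was called (-0.93), and the other 8 had values of -0.29 to 0.023 and were not.

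Of 23 transcription factors listed for keratin genes 5 were higher and 0 lower, where 1.43% of all genes were higher and 0.465% lower. Of the 23 factors, 21 had a mean of at least 6, a level at which 2.10% of all genes were higher and 0.683% lower. GRHL3, a grainyhead-like factor of the epidermal barrier, was at 7.13, 7.07 and 7.03 on vector control arrays and 8.91, 8.94 and 8.96 on CRB3-expressing arrays. Its groups were far apart, and the log2 fold change was 1.86 (SE 0.060, limma adjusted p = 8.55e-07). ELF3, an epithelial ETS factor, had a log2 fold change of 1.21, SOX9, a factor of epithelial progenitors, 1.07, and KLF4, a factor of differentiating epidermis, 0.89. OVOL2, an epithelial zinc-finger factor, had 0.63 in the brighter of its probe sets and 0.24, not called, in the dimmer.

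0 of 9 genes of keratin chaperones and turnover and 0 of 17 other intermediate filament genes were called. HSPB1 and DNAJB6, chaperones that bind keratins, had log2 fold changes of 0.39 and 0.42 (limma adjusted p = 0.00804 and 0.0171). TRADD, a death receptor adaptor that KRT18 binds, had 0.41 (limma adjusted p = 0.0451), and the mesenchymal filament VIM had -0.39 (limma adjusted p = 0.00823). All of these were under the fold threshold and are named after their values were seen.

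**Figure D5:**
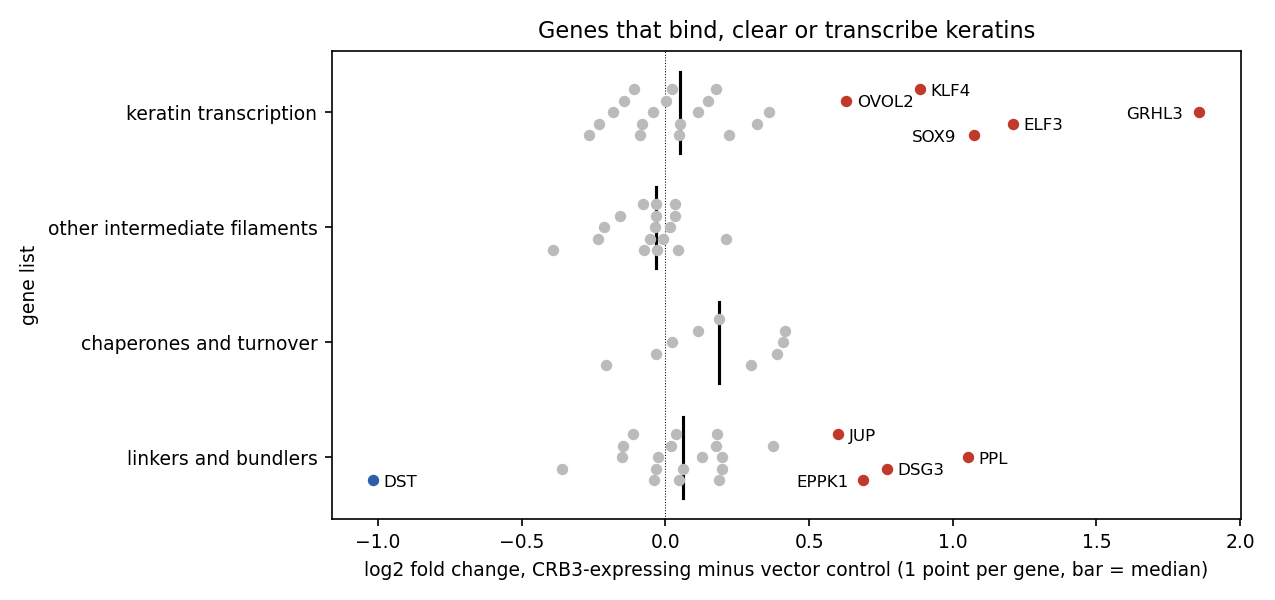
Genes that bind, clear or transcribe keratins and other intermediate filament genes, by list (y axis), with their log2 fold change between CRB3-expressing and vector control cells (x axis). Points are genes in their brightest probe set, with higher calls in red, lower calls in blue and the rest in grey. Black bars give the medians. 4 linkers and 5 transcription factors lie to the right, and DST to the left.

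Over the 56 keratin probe sets, Pearson's r was 0.998 to 0.999 between arrays of the same group and 0.958 to 0.969 between arrays of different groups. Over all probe sets it was 0.997 to 0.998 and 0.994 to 0.996. These are correlations across probe sets, which are not independent replicates. They use the same values as the calls, with the 6 called probe sets among them, and add no separate support. The median log2 fold change of the 56 keratin probe sets was 0.041.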

How the data were processed

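Affymetrix U133 Plus arrays of 3 CRB3-expressing and 3 vector control samples of MCF-10A cells were used. The authors made the deposited log2 values with RMA, which corrects background, normalizes all arrays together and summarises each probe set. Tool versions are not given in the sources used here. Samples were grouped by their labels. The values were tested as deposited by lmFit and eBayes of limma (version 3.58.1, R 4.3.3), with Benjamini-Hochberg adjustment over 54613 probe sets and 62 array controls left out. Names came from the platform annotation, checked against a RefSeq gene table (GRCh38.p14; 0 symbols changed, 54 not in that table). The named genes are every called keratin, the pairs, the brighter keratins of simple, basal and wound epithelia and every called gene of the lists of genes that work on keratins, and further ones are marked. The members and lists were chosen with earlier results of these data known. KRT13, KRT14, PPL and DST were among these results and are no independent evidence. The steps were tested on simulated data. Alternatives were other variance models, scalings, filters, thresholds and probe set rules, and leaving out each array. The number of arrays limits the precision.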

Additional observations from a re-analysis of the deposited data

How the results depend on the processing

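The 6 keratin genes and 6 keratin probe sets called higher, and the 0 called lower, stayed at those counts under every alternative but 4. With no fold threshold 7 keratins were higher, KRT18 among them, with a fold above 2 or with limma's treat 5 were (without KRT80), and without shared probe sets 4 were, since the only probe sets of KRT13 and KRT8 are of shared types. In these 4 settings too, 0 keratins were lower. The shares of all genes called under the changed settings are not given here, so the counts show only how the calls depend on the setting. Leaving out each array in turn gave 6 each time. With an ordinary pooled variance 6 were called, with KRT80 and KRT15 close to the limit (ordinary t-test adjusted p = 0.0496 and 0.0428). Over all alternatives the log2 fold change of KRT13 ranged from 4.19 to 4.55, of KRT16 from 2.42 to 2.55, of KRT15 from 1.80 to 2.03, of KRT14 from 1.75 to 1.88, of KRT8 from 1.01 to 1.13 and of KRT80 from 0.61 to 0.71. KRT7, which was not called, changed sign (-0.013 to 0.12).

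Of the genes that work on keratins, 9 were higher and 1 lower. With no fold threshold 14 were higher and 3 lower, with a fold above 2 4 were higher, with treat 3 were higher and 0 lower, and without shared probe sets 5 were higher. With an ordinary pooled variance, or with the mean over a gene's probe sets, 0 were lower. Shares of all genes under these settings are not given here either, so no background stands beside these counts. DST, DSG3, KLF4 and ELF3 were not called with the ordinary pooled variance, and OVOL2 was not without shared probe sets. Where the cause is not in the setting itself, it was not tested.

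Deviations from the group mean had correlations of -0.085, 0.064 and 0.029 between samples with the same replicate number. Between samples with different numbers they were -0.19 to 0.16. With 3 samples per group this cannot tell whether same-numbered samples were prepared together, and the main test did not pair them. With the replicate block 6 keratins were higher and 0 lower, and 9 and 1 of the genes that work on keratins. Low signals limit the other 29 keratins, whose values under 6 are not shown to be above background.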
